A study of Mus musculus with 3 samples.

Results

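B1-like B cells are described here in mouse spleen. They were taken from single-cell RNA sequencing of splenocytes by a rule on the unique molecular identifier (UMI) counts of each cell, where 1 UMI stands for 1 captured RNA molecule. A barcode was kept with over 200 and under 3500 detected genes, under 15% mitochondrial UMIs and a leading hashtag count at least 3 times the next one. A kept cell was called B1-like with 1 or more UMIs of Cd79a, a chain of the B cell receptor complex, with 2 or more summed UMIs of Bhlhe41, Zbtb32, Ctla4 and Cd5, and with no UMI of Fcer2a (CD23), Cd3e, Cd3d, Lyz2, Nkg7, Sdc1, Dtx1 or Cd1d1. This rule found 221 B1-like cells among 47453 kept cells, of which 40299 had a Cd79a UMI. The control library held 23 of them, the Ang II library 30 and the B6.SLE123 library 168.

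There were 3 libraries, and each combined 2 conditions that were hashed with antibodies. The control library held male C57Bl/6 mice with a sham pump and female C57Bl/6 mice. The Ang II library held male C57Bl/6 mice given angiotensin II (AngII) with placebo or with 2HOBA (2-hydroxybenzylamine), by 2-week pumps from 10 weeks of age at 490 µg/kg/min as labelled. The third held B6.SLE123 mice, a lupus-prone strain on the C57Bl/6 background, given placebo or 2HOBA for 6 weeks from 7 weeks of age. Cells of 3 mice per condition were combined, the mice were 12 to 14 weeks old, and every spleen had been depleted of T cells with CD3 beads. The labels do not tie a hashtag to a condition, so the 2 conditions of a library cannot be told apart. The paper reports that the B6.SLE123 mice were female. Strain, sex, treatment and library cannot be told apart either, since each of these groups was 1 library.

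B-1 cells are a self-renewing B cell lineage of the body cavities and, in lower numbers, the spleen. They are known for natural IgM, for receptors with few added junctional bases that bind self and microbial lipids, and for a damped response to receptor stimulation. CD5 marks the B-1a subset and dampens receptor signals, the repressor Bhlhe41 is needed to maintain B-1a cells, and Zbtb32 and Ctla4 are expressed above their level in follicular B cells. Follicular B cells recirculate, carry CD23 and high IgD, and enter T cell dependent responses, and marginal zone B cells stay in the spleen and carry high CD21 (Cr2) and CD1d.

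Receptors that bind phosphatidylcholine, a lipid of cell membranes, are a known trait of B-1a cells, and most of them pair the heavy chain segment Ighv11-2 with the light chain segment Igkv14-126, or Ighv12-3 with Igkv4-91. None of these 4 segments was part of the rule, and they are shown because the receptor results below rest on them. The germline V exons were read 5′ to 3′ in the sense of the gene from the GRCm38 genome with GENCODE annotation, the build the deposited counts were made on (mm10). The stretches were chr12:114048241-114048540 on the minus strand for Ighv11-2, chr6:67896345-67896642 on the plus strand for Igkv14-126, chr12:114366521-114366820 on the minus strand for Ighv12-3 and chr6:68768555-68768854 on the minus strand for Igkv4-91. Capitals run from the conserved cysteine codon that opens the CDR3, the loop joined to the downstream segments, to the end of the germline exon.
Ighv11-2: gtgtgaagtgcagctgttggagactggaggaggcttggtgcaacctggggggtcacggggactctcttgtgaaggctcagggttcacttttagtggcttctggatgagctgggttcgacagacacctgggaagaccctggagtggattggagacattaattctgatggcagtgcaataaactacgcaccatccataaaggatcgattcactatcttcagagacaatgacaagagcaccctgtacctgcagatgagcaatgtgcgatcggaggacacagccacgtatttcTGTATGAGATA
Igkv14-126: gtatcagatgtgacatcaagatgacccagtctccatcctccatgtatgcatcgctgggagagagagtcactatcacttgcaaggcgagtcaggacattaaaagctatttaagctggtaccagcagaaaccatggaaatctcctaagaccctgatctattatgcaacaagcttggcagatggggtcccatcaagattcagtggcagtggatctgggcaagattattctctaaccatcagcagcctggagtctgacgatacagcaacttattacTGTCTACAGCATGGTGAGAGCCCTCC
Ighv12-3: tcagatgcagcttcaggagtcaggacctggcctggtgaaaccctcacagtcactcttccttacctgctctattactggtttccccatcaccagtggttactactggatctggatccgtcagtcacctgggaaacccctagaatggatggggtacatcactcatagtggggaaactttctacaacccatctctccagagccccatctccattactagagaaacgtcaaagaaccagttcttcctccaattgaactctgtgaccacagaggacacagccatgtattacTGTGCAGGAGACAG
Igkv4-91: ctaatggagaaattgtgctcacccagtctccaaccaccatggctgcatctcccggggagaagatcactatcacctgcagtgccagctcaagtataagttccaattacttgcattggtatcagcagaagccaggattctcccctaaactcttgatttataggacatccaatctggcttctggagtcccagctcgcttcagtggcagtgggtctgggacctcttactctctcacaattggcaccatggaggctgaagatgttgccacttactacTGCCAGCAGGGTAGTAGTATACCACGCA
Ighv11-2 and Ighv12-3 matched at 182 of 313 aligned bases (58.1%). Ighv11-2 and its neighbour Ighv11-1 matched at 303 of 307 bases (98.7%), so that reads of these 2 segments can be split or confused by the counting. Ighv11-1 was detected in 3 B1-like cells, all in the B6.SLE123 library.

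The deposited gene counts summed to between 44146350 and 63516694 UMIs per library over 54971 barcodes. Between 11.7% and 14.0% of the barcodes within the gene and mitochondrial limits were dropped by the hashtag rule. Between 415 and 496 barcodes were shared by each pair of libraries, and no barcode was B1-like in more than 1 library. B1-like cells had median UMI counts of 3399 in the control, 4165 in the Ang II and 3877.5 in the B6.SLE123 library, and median mitochondrial shares between 1.87% and 2.10%. Their depth was close to that of marginal zone-like cells (3106, 4332 and 3180) and above that of follicular-like cells (1782, 2688 and 1779). Follicular-like cells were defined by Cd79a and Fcer2a UMIs (11008 cells), marginal zone-like cells by 2 or more summed UMIs of Dtx1 and Cd1d1 with no Fcer2a (2342 cells), and both by no UMI of the 4 marker genes and of the listed T cell, myeloid, natural killer and plasma cell genes. With 1 library per group no test between libraries could be made. Intervals given for shares (exact Clopper-Pearson), levels (exact Poisson) and ratios between libraries (exact conditional) are 95% intervals and cover counting error only. The share that a count of 0 allows is given as 3 counts of the total, a shorter limit than the exact interval, and holds for cells with a UMI of a gene and not for cells that express it.

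B1-like cells were rare in both C57Bl/6 libraries and several times as frequent in the B6.SLE123 library. They made up 0.144% of kept cells in the control library (0.0914 to 0.216), 0.215% in the Ang II library (0.145 to 0.306) and 0.959% of those from B6.SLE123 mice (0.820 to 1.11). Against control the log2 ratio was 2.73 for B6.SLE123 (2.10 to 3.43) and 0.57 for Ang II (-0.26 to 1.42), so that the interval of the second held 0. As a share of cells with a Cd79a UMI the values were 0.166% (0.105 to 0.249), 0.251% (0.170 to 0.359) and 1.16% (0.989 to 1.34), with log2 ratios of 0.60 (-0.24 to 1.45) and 2.80 (2.16 to 3.49).

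Each library carried 6 hashtags, and the plot of the share by hashtag sets them side by side. The share of kept cells ranged from 0.0526% to 0.235% over the control hashtags, from 0.157% to 0.323% over the Ang II hashtags and from 0.749% to 1.17% over the B6.SLE123 hashtags. Every B6.SLE123 hashtag lay above every hashtag of the other libraries, while the control and Ang II ranges overlapped. Cells thinned to 1000 UMIs before the rule was applied left 5, 4 and 30 B1-like cells, a share of 0.0343%, 0.0306% and 0.196% and a log2 ratio of 2.51 for B6.SLE123 over control (1.13 to 4.23). For Ang II that ratio was -0.17.

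**Figure D1:**
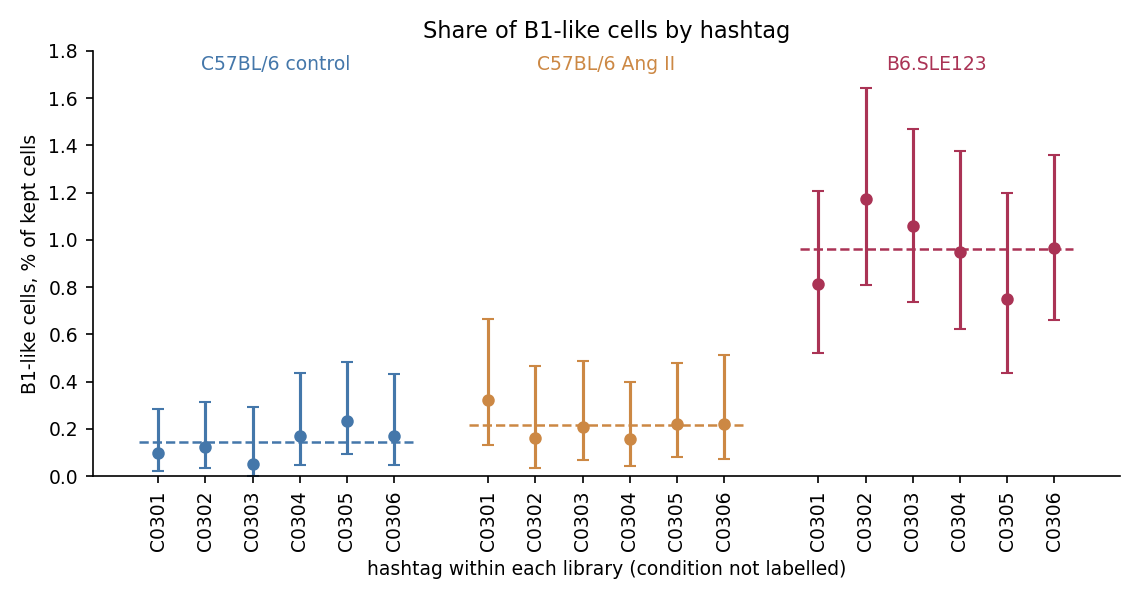
Share of B1-like cells among kept cells, in percent (vertical axis), for each of the 6 hashtags of each library (horizontal axis). Points are hashtags with exact 95% binomial intervals. All B6.SLE123 hashtags lie at 0.749% or above, and all control and Ang II hashtags at 0.323% or below.

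The genes of the rule chose the cells, so their values are a description. Listed as control, then Ang II, then B6.SLE123, Bhlhe41 was detected in 15 of 23, 20 of 30 and 102 of 168 B1-like cells. Zbtb32 was detected in 11, 17 and 125 cells, or 47.8%, 56.7% and 74.4%. Cd5 was detected in 9 of the control cells (39.1%), in 4 of the Ang II cells (13.3%) and in 15 of the B6.SLE123 cells (8.93%). Ctla4, which T cells also express, was seen in 1, 4 and 18 cells. Nearly every member therefore had Bhlhe41 or Zbtb32 (22, 27 and 161 cells), whereas Cd5, the defining marker of B-1a cells, was not detected in most of them at this depth, and B-1a and B-1b cells were not separated.

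Of the members, 19 control, 15 Ang II and 110 B6.SLE123 cells had exactly 2 summed UMIs of the 4 genes, the lowest number the rule accepts. Just outside it lay 99, 67 and 368 cells that met every other condition with a summed UMI count of 1. In the B6.SLE123 library the share of cells with an S100a6 UMI was 6.17% at a sum of 0, 34.5% at 1, 47.3% at 2 and 29 of 58 cells at 3 or more. The share with a Cr2 UMI there was 23.5%, 6.79%, 3.64% and 5.17%. The cells just outside thus stood between the members and the cells with none of the 4 genes in both values, and the edge of the class is a matter of degree. In the control library the share with S100a6 was 5.73%, 11.1%, 31.6% (6 of 19 cells) and 25.0% (1 of 4 cells) in the same order. Median depth rose with the sum, from 1631.5 to 7201 UMIs in the control and from 1720 to 4566.5 in the B6.SLE123 library. These shares were thus not taken at equal depth.

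B1-like cells were compared with follicular-like and marginal zone-like cells over sums of UMIs per class and library, with library as a block in edgeR's quasi-likelihood test and the 13 genes of the rules left out of the calls. Levels are given as CPM, the UMIs of a gene scaled to one fixed total of all gene UMIs for each class and library. Against follicular-like cells 467 genes were higher (4.6% of 10146 tested) and 416 lower (4.1%), or 8.7% in either direction. Against marginal zone-like cells 311 were higher (3.07%) and 303 lower (2.99%), or 6.05% in either direction. Both comparisons share the B1-like sums. The median log2 fold change of all genes was -0.07 against follicular-like and -0.08 against marginal zone-like cells. The 3 libraries differ in strain, sex and treatment, so that the test asks which differences recur over them. With 221 cells the B1-like sums hold 105525, 139719 and 798886 UMIs.

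Genes known from B-1 cells but not used by the rule were higher in B1-like cells. Of 18 listed genes, 17 were tested, 13 were higher and none lower than in follicular-like cells, with a median log2 difference of 2.88. Against marginal zone-like cells 8 were higher and none lower, with a median of 1.57. Among all genes tested, 4.6% and 3.07% were higher in these comparisons. The list was chosen with earlier results of these data known, so its counts describe the members and are no independent check of their identity. The plot of levels by class shows S100a6, Vim, Lgals1 and Spn with every B1-like point to the right of every point of the other classes.

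**Figure D2:**
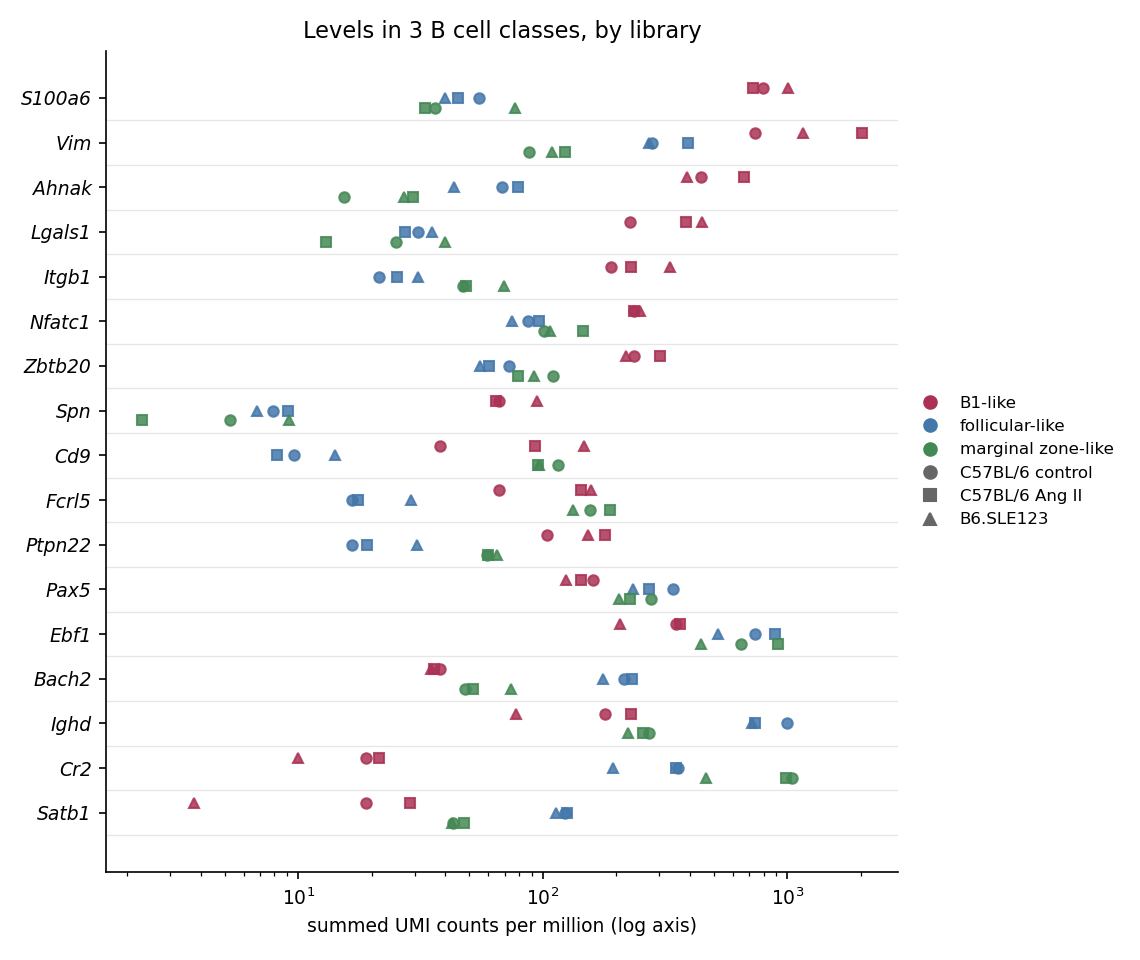
Level of 17 genes in B1-like, follicular-like and marginal zone-like cells, in CPM of the summed UMIs on a log axis. Each point is 1 class in 1 library, with colour for the class and marker shape for the library. For S100a6 the B1-like points lie at 723 or above and all others at 77.0 or below, whereas for Cr2 the B1-like points lie lowest, at 21.5 or below.

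S100a6 encodes a small calcium-binding protein (ENSMUSG00000001025, chr3:90612882-90624181). Its level in B1-like cells was 796 CPM in the control, 723 in the Ang II and 1005 in the B6.SLE123 library. In follicular-like cells it was 54.8, 44.9 and 39.8 CPM, and in marginal zone-like cells 36.1, 33.1 and 77.0 CPM. The classes did not overlap, and the log2 fold change was 4.14 over follicular-like (SE 0.26, adjusted p = 3e-05 by edgeR) and 4.08 over marginal zone-like cells (SE 0.26). S100a6 UMIs were seen in 7 of 23, 15 of 30 and 81 of 168 B1-like cells and in 4.64% to 7.17% of follicular-like cells, and both calls held after thinning. Myeloid cells, taken as cells with no Cd79a and 2 or more Lyz2 UMIs, carried it in 72.7% to 87.9%. The summed level of the 9 myeloid markers outside the rule was 436, 587 and 492 CPM in B1-like cells, below the 618 to 640 CPM in follicular-like cells, and of 7 tested Tyrobp was higher (0.68) and S100a8 and S100a9 lower (-1.52 and -2.18) than in follicular-like cells. Csf1r and C1qa were at 0 in the B1-like cells of all 3 libraries. Fcer1g of the same list was at 0 in control, at 179 CPM in Ang II (5 cells) and at 68.8 CPM in B6.SLE123 B1-like cells (20 cells). Follicular-like cells of the control and B6.SLE123 libraries held it at 14.0 and 19.2 CPM.

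Other genes of the cytoskeleton, of adhesion and of the cell surface moved the same way. Vim, the intermediate filament vimentin, stood at 739, 2018 and 1159 CPM in B1-like cells against 280, 391 and 272 in follicular-like and 88.0, 123 and 109 in marginal zone-like cells. Its log2 fold change was 2.00 and 3.46 over these classes. Lgals1, the lectin galectin-1, stood at 227, 386 and 448 CPM, 3.52 and 3.78 higher on the log2 scale. Neither gene had a B1-like level that overlapped the other classes. Ahnak, a large scaffold protein, was higher by 2.97 and 4.26, and the actin cross-linker Actn1 by 4.68 and 4.15. Itgb1, the beta-1 integrin chain, stood at 190, 229 and 333 CPM against 21.4 to 30.8 in follicular-like cells, a log2 difference of 3.31 (SE 0.17, adjusted p = 1.3e-06 by edgeR), and was 2.13 higher than in marginal zone-like cells.

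Spn encodes CD43, a sialoglycoprotein used to tell B-1 from resting B-2 cells (chr7:127132232-127137823, minus strand). It stood at 66.3, 64.4 and 95.1 CPM in B1-like cells, 7.88, 9.05 and 6.77 in follicular-like and 5.27, 2.30 and 9.14 in marginal zone-like cells. Without overlap, it was 3.25 (SE 0.39, adjusted p = 0.00028 by edgeR) and 3.78 higher on the log2 scale. It was detected in 6 of 23, 8 of 30 and 49 of 168 B1-like cells. In myeloid cells Spn was detected in 25.5% to 28.2%, the same range of shares as in B1-like cells (26.1% to 29.2%). Itgam (CD11b), a marker of cavity B-1 cells, rested on 2, 3 and 19 cells and was higher by 3.66 and 3.49. Cd80, a costimulatory ligand, rested on 2, 2 and 19 cells and was higher by 4.66 and 3.63. Il5ra, the receptor chain for the B-1 growth factor interleukin 5, was higher by 1.94 and 2.26. The calls of Arid3a and Il5ra were lost without the B6.SLE123 library, and against marginal zone-like cells those of Itgam, Cd80, Arid3a and Il5ra were lost without the Ang II library.

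Several of these genes separated B1-like cells from follicular-like cells and not from marginal zone-like cells. Cd9, a tetraspanin of B-1 and marginal zone cells, stood at 37.9, 93.0 and 148 CPM in B1-like, 9.59, 8.21 and 14.2 in follicular-like and 115, 95.7 and 96.4 in marginal zone-like cells. It was 3.35 higher than in follicular-like cells (adjusted p = 0.00047 by edgeR), and the difference from marginal zone-like cells was -0.08 (SE 0.34). Fcrl5, an Fc receptor-like inhibitory receptor, differed by 2.68 and -0.41 (SE 0.31), the second not past the test. The aryl hydrocarbon receptor gene Ahr gave 3.93 and 0.996 (SE 0.34), again with the second not past the test. Serpine2 and Tbc1d9, among the leading genes against follicular-like cells at 4.82 and 4.86, gave -0.64 (SE 0.32) and 0.51 (SE 0.23) against marginal zone-like cells. Il10, the cytokine of regulatory B cells, was detected in 3 B1-like cells, all B6.SLE123, and was too low to be tested.

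Outside immunoglobulin genes, and among genes with the same direction in all 3 libraries and 50 or more UMIs, 1810046K07Rik, an uncharacterised gene, had the highest log2 fold change in both comparisons. It stood at 19.0, 122 and 45.1 CPM in B1-like cells, at 0, 0.760 and 0 in follicular-like and at 0.811, 0.862 and 3.54 in marginal zone-like cells. The log2 fold change was 7.32 (SE 0.72, adjusted p = 4.4e-05 by edgeR) and 4.88 (SE 0.64), and 2, 8 and 26 B1-like cells carried it. Without the Ang II library the second call was lost. AC133103.1, a second gene without a name, was higher by 5.41 and 2.90. Cd300lf, an inhibitory receptor for membrane lipids, stood at 94.8, 50.1 and 32.5 CPM against 1.09 to 1.71 in follicular-like and 15.6 to 28.0 in marginal zone-like cells, and was higher by 5.24 and 1.18, the second lost without any 1 library. Adm, Lysmd2 and Oosp1 were higher than in follicular-like cells by 4.83, 4.70 and 4.62, those of Adm and Oosp1 not without the B6.SLE123 library, and Crip2 was 3.89 higher than in marginal zone-like cells.

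Genes of follicular B cells were lower. Of 9 tested follicular genes, 7 were lower than in follicular-like cells and none higher, with a median log2 difference of -1.46. Follicular-like cells were chosen by an Fcer2a UMI and B1-like cells by none, so genes that go with Fcer2a can differ through the rules. How much they do was not tested. Ighd, the delta chain, stood at 180, 229 and 77.6 CPM in B1-like cells, 1000.5, 739 and 718 in follicular-like and 272, 256 and 223 in marginal zone-like cells. Its log2 fold change was -2.48 (SE 0.22, adjusted p = 5.6e-05 by edgeR) and -0.88. Satb1, a chromatin organiser, fell by 3.51 and 2.16 on the log2 scale, and Icosl, the ligand of the T cell receptor ICOS, by 2.65 and 1.86. Bach2, a repressor of plasma cell differentiation, was lower by 2.49 than in follicular-like cells, and the value against marginal zone-like cells was -0.75 (SE 0.23), not past the test. Cd55 differed from follicular-like cells by -1.46. Against marginal zone-like cells 3 of the 9 genes were higher (Klf2, Ccr7, Cd55) and 4 lower (Cxcr5, Icosl, Ighd, Satb1). Klf2, a factor of lymphocyte egress, was 2.38 higher there and kept its call in all 11 alternatives, whereas the calls of Ccr7, Cd55, Cxcr5, Icosl, Ighd and Satb1 against marginal zone-like cells were each lost without at least 1 library, the control library included.

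Cr2 (CD21, a complement receptor, chr1:195136811-195176716, minus strand) was lowest in B1-like cells. It stood at 19.0, 21.5 and 10.0 CPM, against 358, 351 and 193 in follicular-like and 1042, 987 and 466 in marginal zone-like cells. The log2 fold change was -4.11 (SE 0.18, adjusted p = 4.8e-07 by edgeR) and -5.65 (SE 0.18), with no overlap. Of 10 tested marginal zone genes, 6 were lower in B1-like than in marginal zone-like cells and none higher, with a median of -1.70. Besides Cr2 these were the lipid receptor S1pr3 (-2.61), Marcks (-1.67), Myof (-4.01), Tm6sf1 (-1.74) and Pik3r4. Marginal zone-like cells were chosen by Dtx1 and Cd1d1 UMIs and B1-like cells by none, so genes that go with these can differ through the rules. Plac8, Mzb1, Cd9, Marcks and Cd36 of the same list were higher than in follicular-like cells. The calls of S1pr3, Myof and Tm6sf1 against marginal zone-like cells were lost without the Ang II library, and those of Marcks and Cd36 against follicular-like cells without either the Ang II or the B6.SLE123 library.

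Transcription factors moved in both directions. Of 13 tested, 5 were higher and 2 lower than in follicular-like cells, and 6 were higher and 2 lower than in marginal zone-like cells. Nfatc1, a calcium-driven factor needed for B-1a cells, stood at 237, 236 and 249 CPM against 74.7 to 96.1 in follicular-like and 101 to 146 in marginal zone-like cells, 1.55 and 0.996 higher on the log2 scale. Zbtb20, a zinc finger factor of B-1 and plasma cells, was higher by 2.04 and 1.36 (the second lost without the Ang II library) and Arid3a by 1.97 and 1.57. Tcf4 was higher by 1.42 and 0.72, but its log2 fold change was -1.11 and -2.01 after thinning. The B lineage factors Pax5 and Ebf1 were lower. Pax5, whose calls were lost without the Ang II library, stood at 161, 143 and 124 CPM against 342, 271 and 233 in follicular-like cells, a log2 difference of -0.93, and -0.78 against marginal zone-like cells. Ebf1 gave -1.21 and -1.20. Of 10 pan-B genes, 5 were lower than in follicular-like cells (Pax5, Ebf1, Cd74, Cd22 and Cr2) and none higher, while Ms4a1 (CD20) differed by 0.14 (SE 0.11), not past the test.

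Some genes of receptor signalling passed the test, where 8.7% of all genes did so in either direction against follicular-like cells. Of 10 genes that inhibit B cell receptor signals, Pirb and Ptpn22 were higher and Cd22 lower than in follicular-like cells, and the median was -0.02. Ptpn22, a phosphatase that restrains receptor signals, stood at 104, 179 and 153 CPM against 16.7, 19.2 and 30.6 in follicular-like and 59.2, 59.8 and 65.2 in marginal zone-like cells, 2.77 and 1.14 higher. Siglecg, an inhibitory lectin known to hold B-1a numbers down, stood at 294, 229 and 86.4 CPM in B1-like and 242, 250 and 96.3 in follicular-like cells, a log2 difference of 0.01 (SE 0.14). Of 10 signalling genes, Nfatc1 was higher and Pik3ap1 lower, and Syk, Btk and Blnk gave 0.00 (SE 0.19), -0.37 (SE 0.15) and -0.06 (SE 0.13) against follicular-like cells. None of 8 Toll-like receptor pathway genes passed in edgeR or in DESeq2 against either class, and 1 gene in each comparison had an unadjusted p under 0.05 in edgeR. The calls of Pirb, Cd22 and Pik3ap1 were lost without any 1 of the 3 libraries, and those of Ptpn22 and Nfatc1 against marginal zone-like cells without the Ang II or the B6.SLE123 library.

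Homing genes and cytokines were mixed. Of 10 homing genes, Itgb1 and Itga4 were higher than in follicular-like cells and 4 lower, among them Ccr7, Cxcr4 and Gpr183. Gpr183, a receptor that guides B cells to the follicle edge, fell by 1.501 and Cxcr4 by 1.06 on the log2 scale. Lta and Ltb, lymphotoxins of follicle organisation, were lower by 2.27 and 0.54, as was Il12a by 2.94. Costimulatory genes split into Cd80 and Cd274 higher and Cd40 and Icosl lower. In the interferon list of 12 genes, Isg15 and Bst2 were higher and Ifit2 and Usp18 lower than in follicular-like cells, with a median of -0.35. Ifit2 and Usp18 had no UMI in any B1-like cell, which bounds them at 2.38-fold and 2.33-fold lower than in follicular-like cells at least, against a floor of 3 counts over the group. The calls of Isg15, Bst2, Ifit2, Usp18, Ccr7, Cxcr4, Ltb and Il12a were lost without any 1 library, that of Itga4 without the control or Ang II library, that of Gpr183 without the Ang II, that of Lta without the B6.SLE123 and those of Cd40 and Cd274 without either of the last 2. After thinning the values of Isg15 and Bst2 turned to -7.48 and -0.02.

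The remaining genes named as lowest against follicular-like cells were few in UMIs. Gm19585 and Lpcat2 had no UMI in B1-like cells and were at least 6.74-fold and 4.10-fold lower, Shank1, Zfp825 and Ccdc112 at least 2.09-fold, 2.44-fold and 2.18-fold. Rflnb, an actin regulator, had 1 UMI in B1-like cells against 57.7, 44.1 and 65.5 CPM in follicular-like cells and fell by 5.88 on the log2 scale. Rgl1 fell by 5.52. Against marginal zone-like cells I830077J02Rik was at least 19.3-fold lower, H1fx at least 9.25-fold, Lpcat2 at least 7.76-fold, Tspan15 at least 7.12-fold and Lair1 at least 5.93-fold. Of these, the calls of Shank1, Zfp825 and Ccdc112 were lost without any 1 library, those of Lpcat2, H1fx, Tspan15 and Lair1 without the Ang II and without the B6.SLE123 library, and those of Gm19585 and Rgl1 without the B6.SLE123 library.

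Markers of other B cell states were present in B1-like cells. Of 7 tested genes of T-bet and CD11c atypical B cells, 6 were higher than in follicular-like and 4 than in marginal zone-like cells, none lower. Tbx21 (T-bet) was detected in 0, 3 and 22 B1-like cells, Itgax (CD11c) in 0, 2 and 6 and the chemokine receptor Cxcr3 in 0, 1 and 28, while Zeb2 was at 123, 136 and 138 CPM in all 3 libraries. The summed level of the list was 218, 372 and 462 CPM in B1-like cells, 66.1, 64.8 and 119 in follicular-like and 212, 249 and 216 in marginal zone-like cells. Its genes Itgam and Fcrl5 are also on the B-1 list. The calls of Tbx21 and Cxcr3 were lost without the Ang II library, and that of Itgax without the B6.SLE123 library. Of 4 tested genes of transitional B cells 1 was lower than in follicular-like cells (Vpreb3), and of 8 germinal centre genes Bcl6 was lower (-3.04) and Mki67 higher.

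Some plasma cell genes were also higher. Of 7 tested, 3 were higher than in follicular-like cells (Prdm1, Mzb1 and Derl3) and 2 than in marginal zone-like cells (Jchain by 3.55 and Prdm1 by 2.93 on the log2 scale), and none was lower. The first 3 calls were lost without the Ang II library, for Prdm1 and Derl3 also without B6.SLE123 and for Derl3 also without the control library. Against marginal zone-like cells the call of Jchain was lost without the control or the B6.SLE123 library and that of Prdm1 without the Ang II or the B6.SLE123 library. The summed level of the 8 markers outside the rule was 1317, 1152 and 8569 CPM in B1-like against 517, 453 and 933 in follicular-like cells. Jchain, which joins IgM and IgA polymers, was detected in 3 control, 1 Ang II and 37 B6.SLE123 B1-like cells. In the B6.SLE123 library it was also seen in 14.3% of the cells that met the other conditions with none of the 4 marker genes (median 1720 UMIs) and in 9.61% of myeloid cells, which should lack it, against 0.402% of control myeloid cells. The B6.SLE123 share in B1-like cells (16.0% to 29.1%) lay above both, at a greater depth. The Jchain level was 3005 CPM, against 1601 CPM in the cells with none of the 4 genes and 46.8 CPM in the myeloid cells. B6.SLE123 cells just outside the rule, with 1 summed UMI, had Jchain in 16.8% (13.2 to 21.1). Their level of 4219 CPM lay above that of the members. How much of the Jchain signal is free RNA was not tested. A single B6.SLE123 cell with 17116 UMIs held 530 Jchain, 2351 Ighv11-2 and 8048 Igkv14-126 UMIs, and another with 15941 UMIs held 203 Jchain and 21 Ctla4 UMIs. Slpi had 2817 UMIs in 17 cells, 2754 of them (97.8%) in 1 cell. Without the cells that had a Jchain UMI, 400 genes were higher and 358 lower than in follicular-like cells.

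T cell, natural killer and dividing cells were looked for in the same way. The 12 T cell genes outside the rule summed to 19.0, 0 and 56.3 CPM in B1-like cells. They summed to 2.40, 5.85 and 4.59 CPM in follicular-like and 6.08, 8.05 and 6.78 CPM in marginal zone-like cells. The B6.SLE123 B1-like value (41.1 to 75.4) lay above both classes, and the control value rested on 2 UMIs. Of the 45 T cell gene UMIs in B6.SLE123 B1-like cells, Cd3g gave 29 in 7 cells, 20 of them in 1 cell. Trbc2, Lat, Cd28 and Tcf7 also had UMIs there. The other genes of the list, Trac, Trbc1, Icos, Il7r, Cd4, Cd8a and Foxp3, were at 0 in all 3 libraries. Natural killer genes summed to 0, 0 and 12.5 CPM. None of 3 tested erythroid and platelet genes passed against either class in edgeR or DESeq2, and none had an unadjusted p under 0.05. Of 10 cell cycle genes, Mki67 and Birc5 were higher than in follicular-like cells and none passed against marginal zone-like cells in edgeR or DESeq2, where 1 had an unadjusted p under 0.05 in edgeR. Mki67 was seen in 3, 1 and 15 B1-like cells, and its call was lost without any 1 library. The part of these markers in the differences above was not tested.

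The receptor segments of B1-like cells differed from those of follicular-like and marginal zone-like cells. In the control library 3 of 23 B1-like cells had Ighv11-2 (13.0%, 2.78 to 33.6). In the Ang II library 2 of 30 did (6.67%, 0.818 to 22.1), and 31 of 168 in the B6.SLE123 library (18.5%, 12.9 to 25.2). In follicular-like cells it was detected in 0.230%, 0.333% and 0.464%, and in B6.SLE123 marginal zone-like cells in 2.02%. Of myeloid cells, which should lack it, 0 of 746, 0 of 630 and 3 of 1061 had a UMI, with median depths of 2494, 4686.5 and 2362 UMIs. In every library the lower bound of the B1-like share was above the share in both comparison classes. Cells just outside the rule, with 1 summed UMI of the 4 marker genes, had Ighv11-2 in 3.03%, 7.46% and 13.9%. The segment was thus not particular to the members. With none of the 4 genes the shares were 0.211%, 0.243% and 1.57%, the last from 112 cells. Among B6.SLE123 members it was 21.8% at a sum of 2 and 12.1% at 3 or more.

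The partner segment was nearly always present. Both Ighv11-2 and Igkv14-126 were detected in 3, 2 and 30 B1-like cells (13.0%, 6.67% and 17.9%), in 0, 2 and 4 follicular-like cells and in 1, 3 and 14 marginal zone-like cells. Where a leading heavy and a leading light segment could both be called, this pair led in 3 of 21, 2 of 26 and 28 of 146 B1-like cells. It led in 0 of 2399, 0 of 3734 and 1 of 1230 follicular-like and in 1 of 435, 3 of 648 and 12 of 611 marginal zone-like cells. Among B6.SLE123 B1-like cells with Ighv11-2 the median was 8 Ighv11-2 UMIs per cell. The other pair was rarer, with Ighv12-3 in 0, 1 and 6 cells and Ighv12-3 with Igkv4-91 in 0, 0 and 5, so that Ighv11-2 or Ighv12-3 was found in 13.0% and 10.0% of the cells from the C57Bl/6 libraries, and in 37 of 168 from B6.SLE123 (16.0% to 29.1%). After thinning to 1000 UMIs it was found in 1 of 5, 0 of 4 and 9 of 30 B1-like cells against 9 of 2898, 12 of 2912 and 7 of 1394 follicular-like cells.

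**Figure D3:**
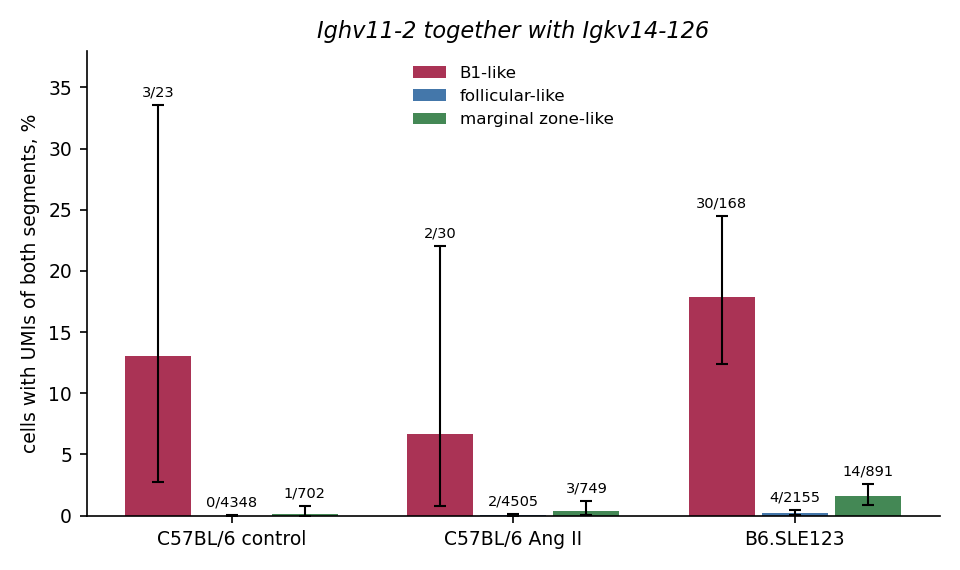
Share of cells with UMIs of both Ighv11-2 and Igkv14-126, in percent (vertical axis), by library (horizontal axis) and class (colour), with exact 95% binomial intervals and the cell counts printed. B1-like cells reach 13.0%, 6.67% and 17.9%, above both other classes in each library, and the intervals of the 3 libraries overlap among B1-like cells.

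By summed levels in edgeR's quasi-likelihood test, 2 of the 4 segments were higher than in both classes. Ighv11-2 stood at 275, 272 and 3370 CPM against 2.40, 1.52 and 6.12 in follicular-like and 4.06, 14.9 and 45.4 in marginal zone-like cells, without overlap. Its log2 fold change was 8.05 (SE 0.82, adjusted p = 0.0091) and 5.47 (adjusted p = 0.027), both calls being lost without the control library. In the B6.SLE123 library 2351 of its 2692 UMIs came from the single cell above, and in the control library 24 of 29 came from 1 cell. Without the top cell of each library the levels were 49.6, 112 and 436 CPM. Ighv12-3 was higher by 3.45 and 4.20, and lost both calls without the B6.SLE123 library. Igkv14-126 (4.92, adjusted p = 0.089) and Igkv4-91 (3.37, adjusted p = 0.28) did not pass against follicular-like cells, and the same cell held 8048 of 9675 B6.SLE123 UMIs of Igkv14-126, whose level fell from 12111 to 2081 CPM without it.

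The Ighv11-2 cells were spread unevenly over the hashtags of the B6.SLE123 library. Hashtag C0301 held 15 of 24 B1-like cells with it, C0304 held 6 of 27, C0306 5 of 32, C0302 4 of 33, C0305 1 of 17 and C0303 0 of 35. Leaving out C0301 lowered the share with Ighv11-2 or Ighv12-3 to 14.6%. The count of 0 of 35 allows a share of up to 8.57%. Other heavy segments that led in B6.SLE123 B1-like cells were Ighv1-82 in 8, Ighv1-26 and Ighv1-55 in 7 each and Ighv1-74 in 5 of 147 cells. The pairs Ighv1-26 with Igkv4-91 and Ighv1-74 with Igkv5-39 led in 5 cells each. In all, 19 of 21, 25 of 26 and 97 of 146 called pairs were distinct, and 63 of the B6.SLE123 cells (43.2%) shared their pair with another B1-like cell, a share that grows with the number of cells and does not by itself mark a clone.

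B6.SLE123 B1-like cells with and without Ighv11-2 also differed in other genes, given as counts of cells. Of the 4 marker genes of the rule, Zbtb32 was detected in 28 of 31 cells with Ighv11-2 (90.3%) and 97 of 137 without (70.8%), and Cd5 in 6 (19.4%) and 9 (6.57%). The other marker genes went the opposite way, with Bhlhe41 in 15 (48.4%) and 87 (63.5%) and Ctla4 in 2 (6.45%) and 16 (11.7%). Every member needed 2 or more summed UMIs of these 4 genes, so their shares depend on each other through the rule. S100a6 was detected in 25 (80.6%) and 56 (40.9%). Spn was detected in 4 (12.9%) and 45 (32.8%). Tbx21 was detected in 0 of 31 and in 22 of 137 (16.1%), the first count allowing a share of up to 9.68%. The cells with Ighv11-2 were the shallower ones, at a median of 3302 against 4124 UMIs. All of these cells come from 1 library, 15 of those with Ighv11-2 carried hashtag C0301, and no test was made.

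Most B1-like cells expressed IgM. In the order control, Ang II and B6.SLE123, Ighm was the leading heavy chain constant gene in 20 of 23, 27 of 30 and 139 of 167 cells. A switched gene led in 2 of 23 (8.70%), 1 of 30 (3.33%) and 20 of 167 cells (12.0%, 7.47 to 17.9). The 20 B6.SLE123 cells were led by Ighg2c (10), Ighg2b (4), Ighg1 (3), Ighg3 (2) and Igha (1). In follicular-like cells a switched gene led in 0.210%, 0.315% and 0.866%, and in marginal zone-like cells in 0.433%, 0 of 740 (which allows up to 0.405%) and 3.44%. The B6.SLE123 interval lay above both classes.

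Ighd, by contrast, was detected in fewer cells despite the greater depth of B1-like over follicular-like cells. It was seen in 39.1%, 46.7% and 20.2% of B1-like, 80.6%, 81.8% and 71.4% of follicular-like and 48.6%, 55.3% and 42.8% of marginal zone-like cells. The B1-like share was the lowest in each library, with an interval apart from that of marginal zone-like cells in B6.SLE123. Of the heavy chain constant genes, Ighg1, Ighg2b, Ighg2c and Ighg3 were higher than in follicular-like cells. In B6.SLE123 cells 803 of 827 UMIs of Ighg1 and 203 of 269 of Ighg2c were in 1 cell each, without which the levels were 30.8 in place of 1035 CPM and 83.7 in place of 337 CPM. Ighg2c had no UMI in B1-like cells of the C57Bl/6 libraries, and Ighg1 had 17 in 1 Ang II cell only. The lambda constant gene Iglc1 stood at 616, 651 and 695 CPM against 279, 222 and 195 in follicular-like and 212, 179 and 168 in marginal zone-like cells, higher by 1.56 (adjusted p = 0.00016 by edgeR) and 1.76. A lambda segment led in 5 of 22, 2 of 30 and 11 of 167 B1-like cells, or 22.7% (7.82 to 45.4), 6.67% (0.818 to 22.1) and 6.59% (3.33 to 11.5). The shares were 5.76%, 5.09% and 3.16% in follicular-like and 9.06%, 6.92% and 3.87% in marginal zone-like cells. Each B1-like interval held the marginal zone-like share, which in Ang II was the higher of the pair.

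**Figure D4:**
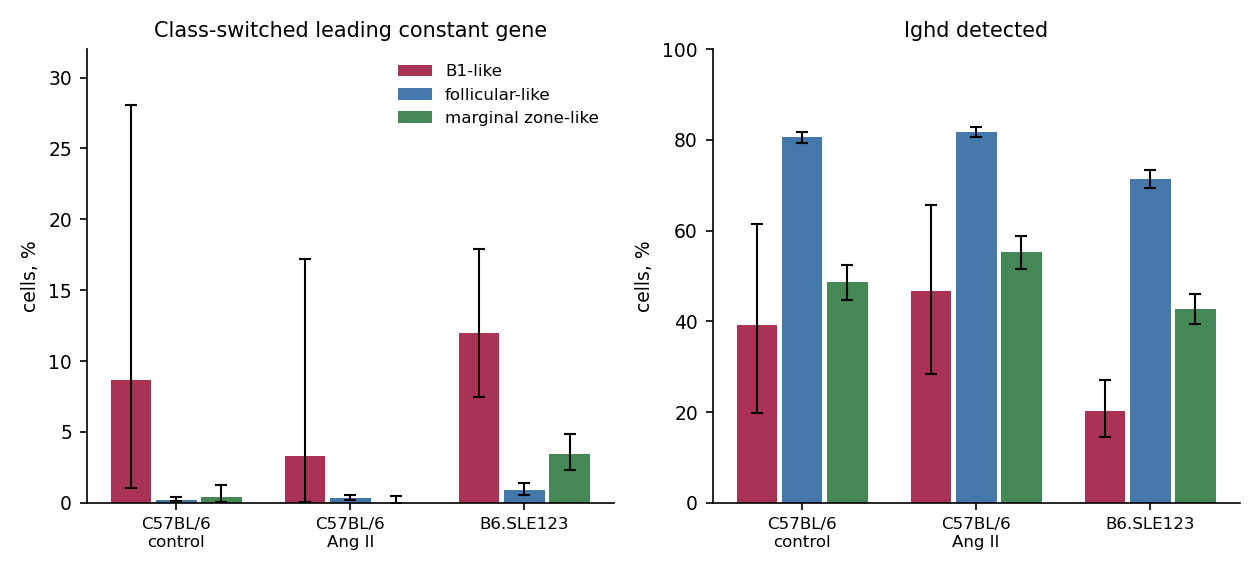
Share of cells led by a switched heavy chain constant gene (left panel) and share with an Ighd UMI (right panel), in percent, by library and class, with exact 95% binomial intervals. Switched cells reach 12.0% in B6.SLE123 B1-like cells, and Ighd is detected in 20.2% of them against 71.4% of follicular-like cells.

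Between libraries, B1-like levels were compared for genes with 50 or more UMIs over both libraries, with the follicular-like value of the same genes beside them. From control to Ang II, 22 of 608 genes were higher (3.62%) and 30 lower (4.93%) by a log2 ratio of 1 or more. From control to B6.SLE123, 191 of 2354 genes were higher (8.11%) and 124 lower (5.27%). The control library enters both, so the 2 sets of ratios are not independent. The plot of ratios over control shows the named genes.

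**Figure D5:**
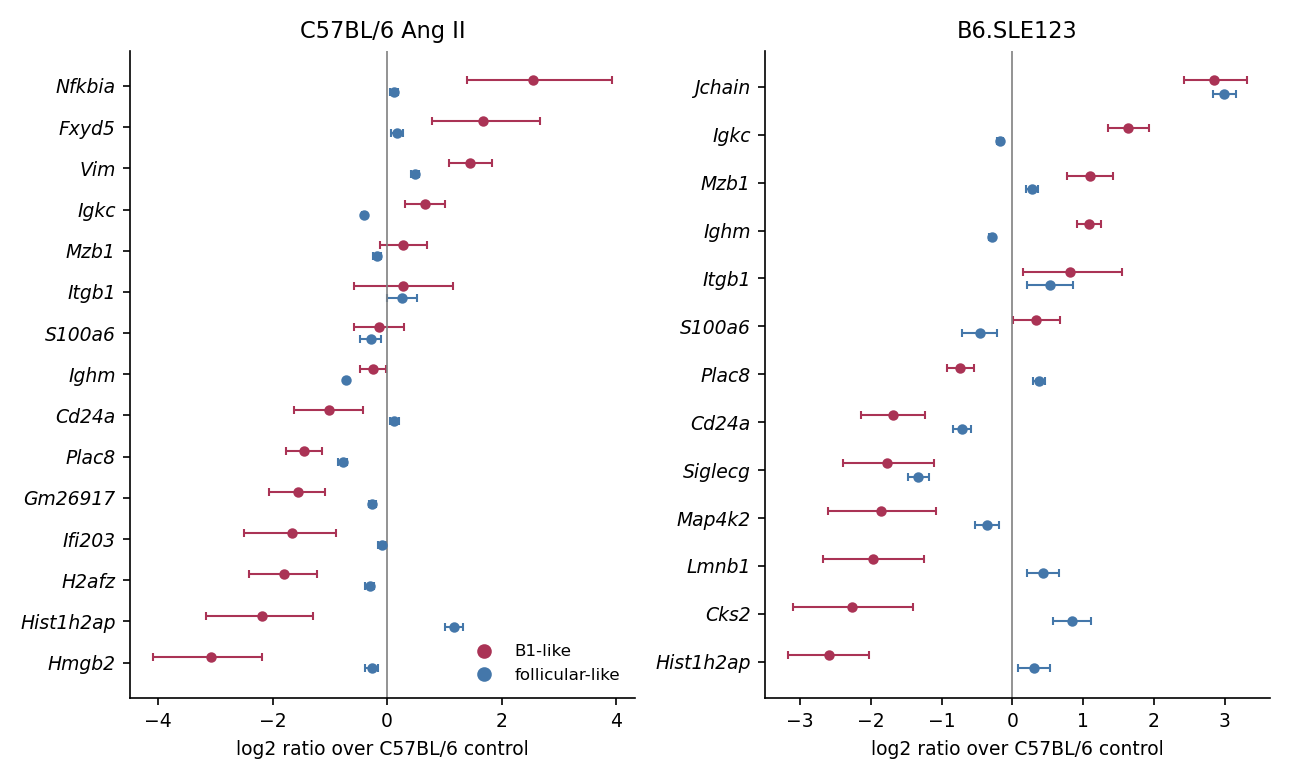
Log2 ratio over the control library (horizontal axis) of named genes in B1-like and in follicular-like cells, with exact conditional 95% intervals, for Ang II and for B6.SLE123 in separate panels. In the Ang II panel Nfkbia lies at 2.54 in B1-like and 0.12 in follicular-like cells, and in the B6.SLE123 panel Siglecg lies at -1.77 and -1.33.

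In Ang II B1-like cells the highest ratio was that of Nfkbia, the inhibitor of NF-kB, with 66.3 CPM in control and 386 CPM in Ang II cells (log2 ratio 2.54, 1.40 to 3.92) while follicular-like cells gave 0.12. Among the next highest, Fxyd5 gave 1.68 and 0.18 and Vim 1.45 (1.08 to 1.83) and 0.48. The control values rested on few UMIs for Nfkbia (7) and Fxyd5 (13). The lowest ratios were -3.07 (-4.08 to -2.18) for the chromatin protein gene Hmgb2, -2.18 and -1.80 for the histone genes Hist1h2ap and H2afz, -1.67 for the interferon-inducible gene Ifi203 and -1.56 for the unnamed transcript Gm26917. Follicular-like cells gave 1.17 for Hist1h2ap and between -0.30 and -0.08 for the other 4. Of these, 42 of the 48 control UMIs of Hist1h2ap, 36 of 76 of Hmgb2 and 39 of 92 of H2afz lay in 1 control cell each. Without the cell with the most UMIs of the gene in each library, the ratio of Hist1h2ap turned to 0.42 (-1.14 to 2.14), and the others were -2.76 for Hmgb2, -1.32 for H2afz, -1.52 for Ifi203 and -0.83 for Gm26917. The lists gave few genes above 50 UMIs, with 1 of 4 B-1 genes (Vim) past the fold. Over the same control library, B6.SLE123 B1-like cells gave 2.07 (1.01 to 3.40) for Nfkbia, 1.68 for Fxyd5 and 0.65 for Vim. They gave -1.55 for Hmgb2, -2.60 for Hist1h2ap, -0.61 for H2afz, -1.41 for Ifi203 and -1.34 for Gm26917. These directions were thus not particular to Ang II, and both contrasts share the control cells.

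In B6.SLE123 B1-like cells the interferon-induced membrane genes Ifitm2 and Ifitm1 were high where the control cells had no UMI. Ifitm2 stood at 3112 CPM in 164 of 168 cells and was at least 109-fold higher than the control floor of 3 counts, and Ifitm1 stood at 1799 CPM in 111 cells and was at least 63.3-fold higher. Follicular-like cells gave log2 ratios of 9.02 and 9.54 for the same genes, so the difference was not particular to B1-like cells. Of the classical interferon genes on the list, Bst2 and Ifi27l2a gave 0.27 and 0.14 in B1-like cells, with intervals that held 0. Cxcr3 was at least 2.29-fold higher in B1-like cells and 3.07 on the log2 scale in follicular-like cells. Fcer1g was at least 2.42-fold and Slpi at least 124-fold higher, the latter from a single cell, without which the level was 80.7 CPM.

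Plasma cell genes were mostly higher in B6.SLE123 than in control B1-like cells, and antibody genes were mixed. Of 5 plasma cell genes with enough UMIs, 4 were past the fold, with a median log2 ratio of 2.85 against 0.28 in follicular-like cells. Jchain gave 2.85 (2.42 to 3.31), Mzb1, a chaperone of IgM secretion, 1.09 (0.78 to 1.43) and Xbp1, a driver of secretion, 3.27 (1.39 to 6.33). Follicular-like cells gave 3.00, 0.28 and 0.28, so Jchain was not raised in B1-like cells alone. The Xbp1 ratio rested on 2 control UMIs. The remaining gene past the fold was Slpi, with 2754 of its 2817 B6.SLE123 UMIs in 1 cell. In the control library 38 of 44 Jchain UMIs lay in 1 cell, and without the top cell of each library its ratio was 5.24 (4.12 to 6.69), from 6 control UMIs. Of 7 heavy chain constant genes 4 were past the fold upwards and 2 downwards, and of 4 light chain constant genes 1 upwards. Ighm gave 1.09 and Igkc 1.64 in B1-like against -0.29 and -0.18 in follicular-like cells, and without cells with a Jchain UMI the value of Ighm was -0.61. Igha gave -1.60 (-2.23 to -0.94) against 4.70 in follicular-like cells, with 24 of 30 control UMIs in 1 cell and -0.18 (-1.42 to 1.34) without the top cell of each library. Ighg2b gave -0.72 (-1.64 to 0.31) and the lambda gene Iglc3 -0.28 (-0.52 to -0.03). Ighv11-2 gave 3.62 (3.09 to 4.20), with the reservation on 1 cell stated above. Of 11 B-1 genes 3 were past the fold upwards and 1 downwards, with Cd9 at 1.96 (0.57 to 3.86) and Fcrl5 at 1.25 (0.16 to 2.59). The downward one was Siglecg, at 294 CPM in control and 86.4 in B6.SLE123 cells, a log2 ratio of -1.77 (-2.40 to -1.11) in B1-like and -1.33 (-1.48 to -1.18) in follicular-like cells.

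The other genes that were lowest in B6.SLE123 B1-like cells were Hist1h2ap at -2.60, Cks2 at -2.27, the lamin gene Lmnb1 at -1.97 and the kinase gene Map4k2 at -1.86. Follicular-like cells gave 0.31, 0.84, 0.43 and -0.36. Without the top control cell Hist1h2ap stood at 62.8 CPM in place of 455, below the 75.1 CPM of the B6.SLE123 cells, and 15 of the 21 control UMIs of Cks2 also lay in 1 cell. Without the top cell of each library the ratios were -0.37 (-1.63 to 1.16) for Hist1h2ap, -1.01 (-2.34 to 0.57) for Cks2, -1.26 for Lmnb1 and -1.73 for Map4k2. Cd24a, a surface protein high on immature B cells, gave -1.69 (-2.13 to -1.23) against -0.72, and Ighd -1.21 (-1.98 to -0.39) against -0.48.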

How the data were processed

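RNA and hashtag antibody tags of mouse splenocytes were captured with a 5′ single-cell chemistry. The deposited UMI counts, per gene and barcode and per hashtag, were made by the authors with Cell Ranger (6.0.0 in the file header) on mm10, are not normalized, and summed to 44146350, 59043555 and 63516694 gene UMIs in the control, Ang II and B6.SLE123 library. The limits on genes, mitochondrial UMIs and hashtags were applied here. No doublet caller was run, and the hashtag ratio removes doublets of different hashtags only. Of 32285 genes, 32158 matched the GENCODE annotation.

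Raw UMIs were summed per class and library into 9 sums and tested with edgeR 4.0.16 in R 4.3.3 (quasi-likelihood, TMM, filterByExpr, library as a block, Benjamini-Hochberg threshold 0.05). The robust, bias-adjusted form was chosen on simulated counts after the default form's counts had been seen. CPM, intervals and shares were computed in Python 3.11.15 with numpy 2.4.6, scipy 1.17.1 and pandas 2.3.3, and thinning used 1 fixed seed. The members and the gene lists were chosen with earlier results of these data known. Named were all list genes, the 10 highest and 10 lowest called log2 fold changes against follicular-like and the 5 against marginal zone-like cells (50 or more UMIs, same direction in 3 of 3 libraries), and the 5 highest and lowest ratios per library contrast, immunoglobulin, rule, Xist and Y-linked genes left out. A few genes that the rule names are not reported here. Single cells and segments outside this rule were chosen after their values were seen. Alternatives were DESeq2 1.42.0, its size factors in edgeR, no filter, no block, each library or hashtag left out, cells thinned to 1000 UMIs, other cell limits and other forms of the rule. Leaving out cells with a Jchain UMI, leaving out the cell with the most UMIs of a gene, and the default edgeR form were chosen after seeing the data. Whether replicates are separate cultures does not arise, since each group is 1 library of combined mice. The p-values measure the spread over 3 libraries that differ in strain, sex and treatment.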

Additional observations from a re-analysis of the deposited data

Results flagged for a closer look

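In 226 genes, the ratio of B1-like cells to each of the 2 comparison classes was compared between libraries, and a gene is listed where it pointed in opposite directions, or was absent, in different libraries with intervals corrected over all genes, classes and libraries. That correction was set after a longer list had been seen, and none of the differences between libraries was tested. Hmgb2, Hist1h2ap and H2afz, genes of chromatin, and the cell cycle gene Cks2 were higher in B1-like than in marginal zone-like cells in the control library and lower in the B6.SLE123 library. The log2 ratios were 1.82 and -0.95 for Hmgb2, 2.82 and -0.94 for Hist1h2ap, 1.36 and -0.60 for H2afz and 2.02 and -1.10 for Cks2. In the control library 1 cell held 42 of 48 UMIs of Hist1h2ap, 36 of 76 of Hmgb2, 39 of 92 of H2afz and 15 of 21 of Cks2. Without the cell with the most UMIs of the gene in each library, the control ratio of Hist1h2ap was -0.04 (-1.51 to 1.12) and that of Cks2 0.34 (-1.14 to 1.502), so that these 2 genes no longer pointed in opposite directions beyond their intervals, while Hmgb2 gave 1.02 and -1.26 and H2afz 0.70 and -0.78. Cd24a gave 0.98 in the control and -0.64 in the B6.SLE123 library against marginal zone-like cells. Igkc, the kappa constant gene, gave -0.81 in the control and 1.003 in the B6.SLE123 library against follicular-like cells. Igkv14-111, a kappa segment, had no UMI in Ang II B1-like cells, and gave 2.35 (control) and 1.17 (B6.SLE123) against follicular-like and 3.34 and 1.17 against marginal zone-like cells. Of its 145 control UMIs, 121 lay in 1 cell, and without the top cell the control ratios were -0.09 (-0.74 to 0.49) against follicular-like and 0.90 against marginal zone-like cells. The B6.SLE123 ratios were then 0.58 and 0.57.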

How the results depend on the processing

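The higher share of B1-like cells in B6.SLE123 than in control kept its direction in every alternative run. Of kept cells, the control, Ang II and B6.SLE123 shares were 0.0863%, 0.103% and 0.513% with the limits read as UMIs, 0.0343%, 0.0306% and 0.196% after thinning, 0.0251%, 0.107% and 0.331% with 3 or more summed UMIs, and 0.0815%, 0.107% and 0.508% with 2 different marker genes. Without cells with a Jchain UMI the B6.SLE123 share was 0.748%, and 0.902% of Cd79a-positive cells. Of Cd79a-positive cells the same 4 settings gave 0.0983%, 0.119% and 0.619%, then 0.0398%, 0.0369% and 0.242%, then 0.0289%, 0.126% and 0.399%, then 0.0940%, 0.126% and 0.612%. With 3 or more summed UMIs the log2 ratios over control were 2.10 and 2.12 for Ang II and 3.72 and 3.79 for B6.SLE123, from 4 control cells. Leaving out 1 hashtag gave 0.123% to 0.157%, 0.195% to 0.228% and 0.918% to 0.991% of kept cells, 0.140% to 0.182%, 0.228% to 0.268% and 1.09% to 1.204% of Cd79a-positive cells, log2 ratios of 0.43 to 0.80 and 0.46 to 0.84 (Ang II) and 2.62 to 2.96 and 2.67 to 3.05 (B6.SLE123), and shares with Ighv11-2 or Ighv12-3 of 6.25% to 15.8%, 4.17% to 12.0% and 14.6% to 27.1%. After thinning that segment share was 0% in Ang II (4 cells) and 30.0% in B6.SLE123.

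Thinning, which left 39 B1-like cells and fewer genes to test, gave 23 higher and 36 lower genes against follicular-like and 20 and 53 against marginal zone-like cells. Without the control, Ang II and B6.SLE123 library in turn, 302, 135 and 97 genes were higher and 190, 96 and 119 lower than in follicular-like cells, and 206, 43 and 75 higher and 120, 29 and 130 lower than in marginal zone-like cells. In the same order 68, 49 and 45 of the 88 named genes called against follicular-like cells kept their call, and 50, 25 and 28 of 69 against marginal zone-like cells. DESeq2 called 652 higher and 318 lower against follicular-like cells, 67.2% higher against 52.9% in edgeR, and the default edgeR form 529 and 388, then 368 and 290. With 2 different marker genes 173 genes were higher than in marginal zone-like cells. No paired analysis was possible because each of the study's groups is 1 library and the groups share only replicate number 1. With no replicate block, 321 and 278, then 176 and 192 genes were called. Counts of genes past the fold between libraries were 1 higher and 1 lower (Ang II) and 19 and 3 (B6.SLE123) after thinning, and 126 and 60 (B6.SLE123) with 2 marker genes. Ratios need 50 or more UMIs, a limit set for the alternatives after values had been seen.

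Ratios over control that turned were Igkv14-126 in Ang II (0.0870), Igkv14-111 (0.30) and Ighm (-0.61) in B6.SLE123 without Jchain cells, and Plac8 (0.14), Iglc3 (0.62) and Ms4a1 (0.32) in B6.SLE123 after thinning. Leaving out the cell with the most UMIs of the gene in each library turned Hist1h2ap in Ang II (0.42) and Igkv14-111 in B6.SLE123 (0.44), and in the control library Hist1h2ap against marginal zone-like (-0.0389) and Igkv14-111 against follicular-like cells (-0.0899). Called or newly called log2 fold changes that turned against follicular-like cells were Tcf4 (-1.11), Isg15 (-7.48), Bst2 (-0.0196) and Igkv14-111 (-10.80) after thinning and Jchain (-12.96, by construction) and Xbp1 (-0.94) without Jchain cells. Against marginal zone-like cells they were Tcf4 (-2.01), Itga4 (-0.0518), Ifitm1 (1.199) and Igkv14-111 (-10.33) after thinning, Jchain (-12.25, by construction) and Xbp1 (-1.11) without Jchain cells, and Xbp1 (-1.84) without the B6.SLE123 library. For the others the cause was not tested. The 23 control and 30 Ang II cells limit what could be detected there.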
